A study of Mus musculus with 4 samples.

Results

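Complement is a cascade of plasma and tissue proteins that marks microbes and dying cells for uptake. C1q, built from chains encoded by C1qa, C1qb and C1qc, binds antibody complexes and apoptotic cells and starts the classical pathway. C4, encoded in the mouse by C4b, and C3 are then cleaved, and factor B, encoded by Cfb, drives the alternative pathway that amplifies C3 cleavage. C3ar1 and C5ar1 encode the receptors for the small fragments C3a and C5a. Tissue macrophages are a main source of C1q, whereas the liver makes most of the C3, C4 and factor B of plasma.

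The accessible chromatin of these 8 genes was examined in large peritoneal macrophages (LPMs) of 9-week-old C57BL/6 mice with ATAC-seq, an assay that sequences the DNA a transposase can reach. Rxrab fl/fl mice carry floxed Rxra and Rxrb alleles and no Cre. LysMCre+ Rxrab fl/fl mice carry the same alleles and a Cre driven by the LysM locus, which is active in myeloid cells in general and not in LPMs alone. Each genotype had 2 libraries of 40000 sorted cells, all of library batch 1: the submitters call the Rxrab fl/fl libraries WT1 and WT3 and the LysMCre+ Rxrab fl/fl libraries KO1 and KO2, names used from here on. According to the study's reporting notes, ATAC-seq samples that did not cluster with their group were left out, so the spread within a genotype may be understated. Merging all overlapping peaks (1 bp or more in common) gave 70744 regions. A region was counted here if its midpoint had the transcription start site (TSS) of C1qa, C1qb, C1qc, C3, C3ar1, C5ar1, C4b or Cfb as the nearest one, or if it overlapped the body of one of these genes. This gave 27 regions, of which 11 were called in all 4 libraries.

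The libraries differed in yield. The peak lists hold 38048 and 16097 peaks in WT1 and WT3, against 65421 and 55581 peaks in KO1 and KO2. Over the 15199 regions called in all 4 libraries, the median fold enrichment at the summit over the local background was 14.5, 7.52, 15.1 and 12.0 in the same order, so WT3 stood apart as the weakest library. Tests therefore used values centred on the median of each library. Promoters of LPM markers (Gata6, Icam2, Timd4, Adgre1, Cd5l and Selp) were called for 4 of 6 genes in WT3 and for 6 of 6 in each of the other libraries. No promoter of the 5 B cell, 4 T cell or 4 mast cell markers was called in any library. Of the 4 neutrophil markers, 1 and 0 were called in the WT libraries and 3 and 2 in the KO libraries. Of the 6 markers of small peritoneal macrophages or monocytes, 4 and 2 were called in WT and 5 and 4 in KO. Of the 4 general macrophage markers, 2 and 2 were called in WT and 4 and 4 in KO. The promoters of Csf1r and Itgam were called in KO alone, but an Itgam region 862 bp downstream of the TSS was called in all 4 libraries. Of all regions, 22.8% were called in both KO libraries and in neither WT library. The part of cells other than LPMs in the results was not tested.

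Each of the 8 genes had an accessible promoter. A region at the TSS was called in all 4 libraries for C1qa, C1qb, C1qc, C3ar1, C5ar1 and C4b, and in all but WT3 for C3 and Cfb. By annotation, 8 of the 27 regions (29.6%) were promoter-TSS, meaning that the midpoint lay at most 1 kb upstream or 200 bp downstream of any TSS, against 18.1% of all regions. A further 10 were intergenic, 8 lay in introns and 1 in the 3′ UTR of the neighbouring gene Foxj2. Of the 27 regions, 24 lay within 10 kb of the TSS of their gene. The median width was 452 bp, with a range of 200 to 789 bp.

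**Figure D1:**
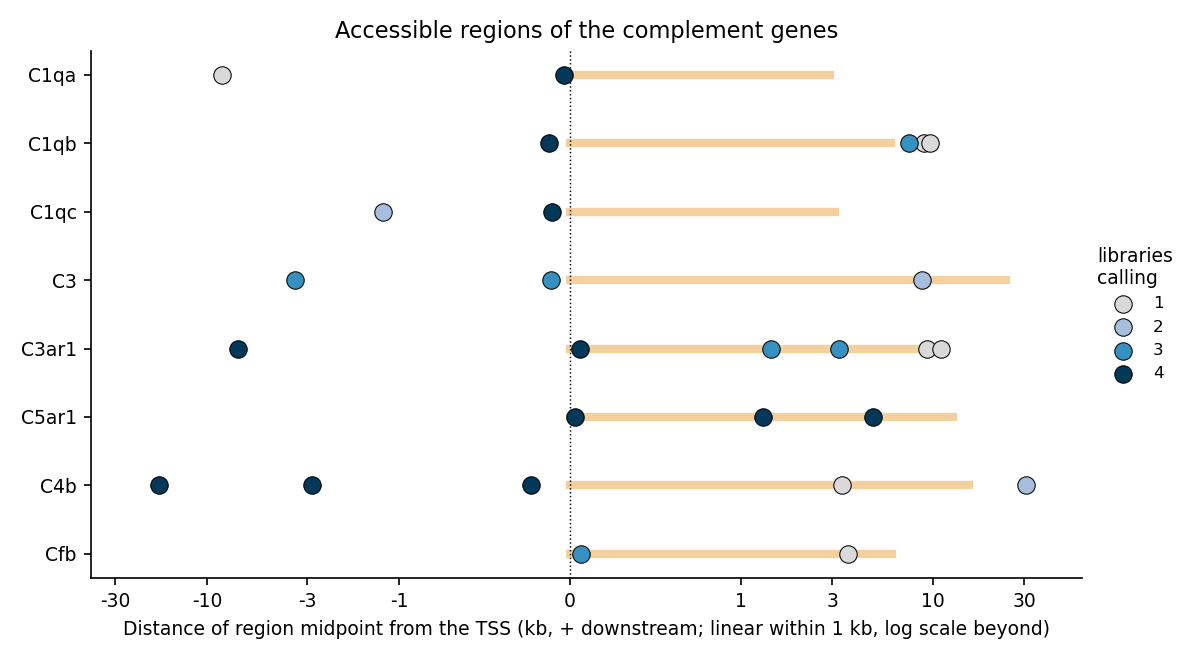
Accessible regions of the 8 complement genes, plotted by the distance of the region midpoint from the TSS in kb (negative upstream, linear within 1 kb and logarithmic beyond). Points are regions, shaded by how many of the 4 libraries called them, and orange bars are gene bodies. C5ar1 is the 1 gene whose 3 regions were all called in the 4 libraries.

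C1qa, C1qb and C1qc lie side by side on the minus strand of chromosome 4 (mm10, chr4:136880126-136898844), with 6.71 kb between the TSSs of C1qb and C1qc and 5.93 kb between those of C1qc and C1qa. The RefSeq promoter table (build GRCm38.p6, the assembly also called mm10) matched 5 of the 8 genes, C1qb, C1qc, C3ar1, C5ar1 and C3, and C1qa, C4b and Cfb had no entry. Promoters are printed for the matched genes whose TSS region was called in all 4 libraries. They run from 250 bases before to 50 bases after the annotated start, on the strand of the gene. The motifs searched on both strands were AGATAA for factors of the GATA family, TTGCNNAA for C/EBP, TGANTCA for AP-1, GAGGAAGT for PU.1, GAAANNGAA as part of the interferon response element, AGGTCA as the nuclear receptor hexamer, TGCTGA as part of the MAF element and CACGTG as the E-box. Repeats of the hexamer in 1 direction with 1 or 5 bases between them were searched as DR1 and DR5, and the hexamer is also counted alone where it stands in a repeat. Capitals mark every match.
C1qb promoter, chr4:136886151-136886450, minus strand: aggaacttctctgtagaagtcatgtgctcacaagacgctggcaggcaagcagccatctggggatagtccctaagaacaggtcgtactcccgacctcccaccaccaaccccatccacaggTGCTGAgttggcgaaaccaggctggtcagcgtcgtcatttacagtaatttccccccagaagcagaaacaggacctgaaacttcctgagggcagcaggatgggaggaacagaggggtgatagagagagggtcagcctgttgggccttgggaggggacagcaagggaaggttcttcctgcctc
C1qc promoter, chr4:136892865-136893164, minus strand: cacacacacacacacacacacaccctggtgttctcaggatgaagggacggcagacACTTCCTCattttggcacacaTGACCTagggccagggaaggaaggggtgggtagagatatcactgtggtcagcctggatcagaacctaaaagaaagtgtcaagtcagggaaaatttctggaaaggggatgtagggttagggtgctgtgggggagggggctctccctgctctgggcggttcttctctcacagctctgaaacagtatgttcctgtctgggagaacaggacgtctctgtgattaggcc
C3ar1 promoter, chr6:122856108-122856407, minus strand: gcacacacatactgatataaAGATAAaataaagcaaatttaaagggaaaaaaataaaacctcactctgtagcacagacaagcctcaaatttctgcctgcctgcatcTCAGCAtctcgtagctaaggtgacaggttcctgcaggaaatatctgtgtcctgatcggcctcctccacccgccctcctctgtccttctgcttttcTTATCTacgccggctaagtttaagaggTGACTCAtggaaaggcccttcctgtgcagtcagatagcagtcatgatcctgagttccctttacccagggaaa
C5ar1 promoter, chr7:16259289-16259588, minus strand: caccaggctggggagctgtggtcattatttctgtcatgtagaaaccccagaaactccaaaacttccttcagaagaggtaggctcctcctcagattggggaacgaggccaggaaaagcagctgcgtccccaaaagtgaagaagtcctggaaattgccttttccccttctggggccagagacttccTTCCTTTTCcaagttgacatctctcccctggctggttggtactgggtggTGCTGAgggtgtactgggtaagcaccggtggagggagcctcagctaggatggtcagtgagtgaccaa

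TGCTGA was in 4 of the 5 matched promoters (all but C1qc), against 19.4% of the 31396 RefSeq promoters on chromosomes 1 to 19. It started 131 bases before the annotated start in C1qb, 144 before it in C3ar1 and 17 before it in C5ar1. The C1qc promoter instead held a PU.1 match 195 bases and an AGGTCA match 174 bases before the start. PU.1 is the lineage factor of macrophages, and its motif was in 3.25% of all promoters. C3ar1 held GATA matches 230 and 49 bases and an AP-1 match 22 bases before the start, with shares of 11.2% and 7.84% over all promoters. C5ar1 held GAAANNGAA 66 bases before the start, a motif in 8.52% of all promoters. The unprinted C3 promoter held a C/EBP match 45 bases before its start, against 10.9% of all promoters. A match describes these letters and is not evidence of binding.

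Within 100 bases either side of the strongest summit, AGGTCA was in 6 of the 27 regions (22.2%) against 13.0% of all regions, and TGCTGA in 7 of 27 (25.9%) against 19.3%. The window at the C1qa TSS held 3 TGCTGA matches. AP-1 motifs were in 4 of 27 regions against 12.7% of all regions, C/EBP motifs and GAAANNGAA in 3 each against 11.0% and 7.12%, and E-boxes in 3 against 5.10%. GATA and PU.1 motifs were in 1 each, against 6.41% and 9.29%. Neither DR1 nor DR5, the repeats that RXR dimers bind, occurred in any of the 27 windows, and their shares over all regions were 0.0283% and 0.0226%. The windows of the intronic C5ar1 regions and of the upstream C3ar1 region are printed below because they had the largest differences in fold enrichment among regions outside promoters that were called in all 4 libraries. They are 200 bases centred on the summit, on the plus strand.
C5ar1 intronic region 1307 bp downstream of the TSS, chr7:16257932-16258131: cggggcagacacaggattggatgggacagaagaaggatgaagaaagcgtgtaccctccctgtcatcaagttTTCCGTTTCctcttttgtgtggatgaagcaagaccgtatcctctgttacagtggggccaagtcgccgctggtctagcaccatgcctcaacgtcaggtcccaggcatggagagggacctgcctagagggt
C5ar1 intronic region 4896 bp downstream of the TSS, chr7:16254307-16254506: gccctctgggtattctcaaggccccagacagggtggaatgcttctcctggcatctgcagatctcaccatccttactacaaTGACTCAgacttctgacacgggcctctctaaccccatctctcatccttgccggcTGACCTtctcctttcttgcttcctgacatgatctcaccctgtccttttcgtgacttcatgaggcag
C3ar1 region 6865 bp upstream of the TSS, chr6:122862942-122863141: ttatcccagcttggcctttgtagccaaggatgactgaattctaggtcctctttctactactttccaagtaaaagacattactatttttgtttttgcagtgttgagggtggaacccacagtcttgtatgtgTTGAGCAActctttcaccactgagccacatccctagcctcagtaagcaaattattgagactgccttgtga

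How often the 27 regions were called followed the yield of the library. WT1 called 17 of them (63.0%, against 52.0% of all regions) and WT3 called 11 (40.7%, against 21.9%). KO1 called 24 (88.9%, against 90.7%) and KO2 called 23 (85.2%, against 77.2%). The 11 regions called in all 4 libraries were 40.7% of the complement regions, against a background of 21.5%. Both KO libraries and neither WT library called 3 regions (11.1%), against 22.8% of all regions. The opposite pattern was found for 0 of 27, against 0.0452%. These 3 regions were 1214 bp upstream of the C1qc TSS, in a C3 intron 8769 bp downstream of the TSS and in a Tnxb intron 30682 bp downstream of the C4b TSS. Their fold enrichment in the KO libraries was 2.90 and 3.56 at C1qc, 5.76 and 6.03 at C3 and 9.89 and 7.27 at C4b. With the same number of peaks taken from each library, where the share over all regions was not computed, their number was 0. It was 9 without WT1, 6 without KO1 and 7 without KO2, but leaving out a library drops a condition from the count. Such a rise is built into the rule and says nothing about these regions.

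The strongest region was the one at the TSS for 7 of the 8 genes. C4b was the exception, with its strongest region 17748 bp upstream.

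**Figure D2:**
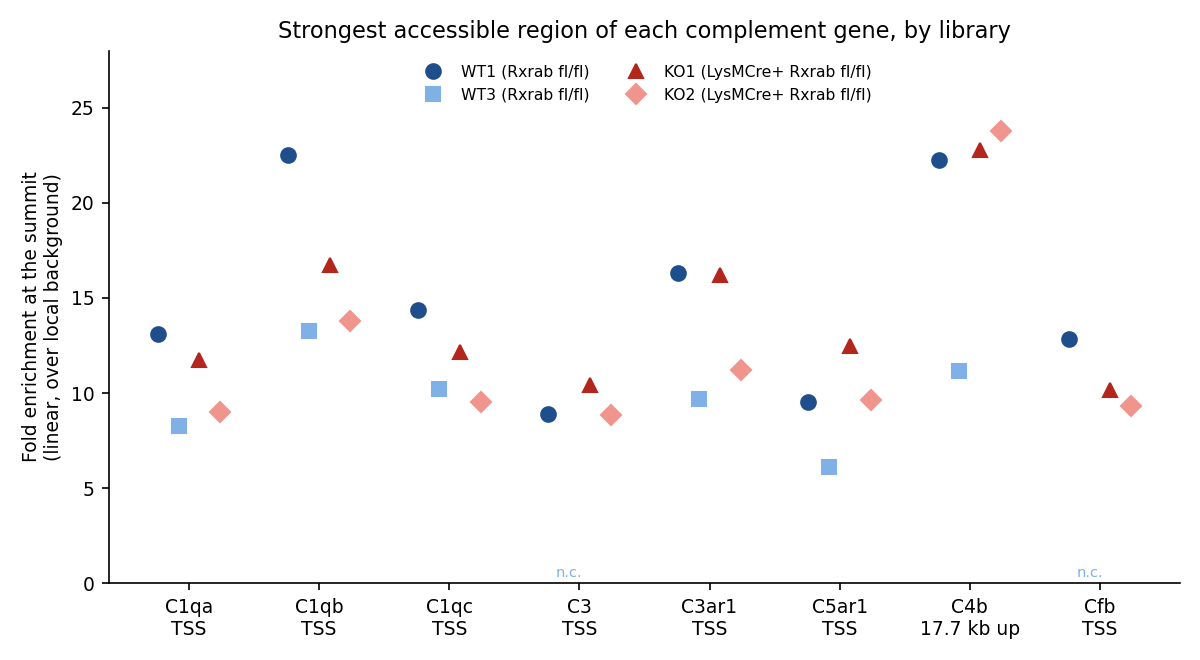
Fold enrichment at the summit over the local background (linear scale from 0) in each library, for the strongest region of each complement gene. Each point is 1 library and n.c. marks a library that did not call the region. The genotypes overlap at C1qb, where WT lies at 22.5 and 13.3 and KO at 16.7 and 13.8.

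Among the promoters called in all 4 libraries, the mean log2 fold enrichment was highest at C1qb (4.02), followed by C3ar1 (3.70), C1qc (3.51), C1qa (3.37), C5ar1 (3.19) and C4b (2.48). At the C1qb TSS (chr4:136885983-136886662) the fold enrichment was 22.5 and 13.3 in WT1 and WT3 and 16.7 and 13.8 in KO1 and KO2. This was above at least 87.1% of the regions called in each library. At the C1qc TSS (chr4:136892626-136893414) it was 14.4 and 10.2 in WT and 12.2 and 9.51 in KO. At the C1qa TSS (chr4:136898665-136899096) it was 13.1 and 8.28 in WT and 11.8 and 9.01 in KO. Once centred on the library medians, each of the 3 promoters had both KO libraries below both WT libraries, as did 32.9% of all regions. The difference in log2 fold enrichment, KO minus WT, was −0.56 ± 0.21 (SE) at C1qb, −0.54 ± 0.22 at C1qc and −0.38 ± 0.21 at C1qa, with limma adjusted p of 0.151, 0.186 and 0.300. None passed the threshold of an adjusted p under 0.05 with a log2 difference past 1. The p-values here measure only the spread between these libraries, which may be technical. In limma the variance of each region is drawn towards a value pooled over all regions tested. These p-values thus rest in part on the spread of other regions.

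The receptor genes differed in their layout. The C3ar1 TSS region (chr6:122855825-122856366) had a fold enrichment of 16.3 and 9.69 in WT and 16.2 and 11.2 in KO, a log2 difference of −0.27 ± 0.21 (adjusted p = 0.473, limma). The region 6865 bp upstream (chr6:122862757-122863287) was at 17.0 in WT1 and at 4.76 in WT3, and at 19.1 and 17.1 in KO. Its summit in WT3 rested on a pileup of 9 fragments, lower than 96% of the regions of that library. With 1 library left out, its genotype has 1 library and no measured spread. The log2 difference there was 0.64 ± 0.27 (adjusted p = 0.193, limma), but it was 1.08 without WT1 and −0.14 without WT3. The difference at this site was thus set by which WT library was kept.

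C5ar1 held regions at its TSS (chr7:16258975-16259645) and in introns 1307 bp (chr7:16257806-16258257) and 4896 bp (chr7:16254237-16254647) downstream. At the TSS the fold enrichment was 9.55 and 6.12 in WT and 12.5 and 9.61 in KO, a log2 difference of 0.15 ± 0.21 (adjusted p = 0.704, limma). At 1307 bp it was 11.3 and 7.95 in WT and 7.41 and 7.43 in KO. Its log2 difference of −0.72 ± 0.23 (95% interval −1.22 to −0.22) was the largest in size of the 11 regions and had the lowest adjusted p, 0.109 by limma. At 4896 bp it was 6.72 and 7.67 in WT and 8.31 and 6.73 in KO, a log2 difference of −0.31 ± 0.30 (adjusted p = 0.564, limma). This last difference was −0.88 without WT1 and −0.073 without WT3.

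The promoters of C3, C4b and Cfb were accessible as well. The C3 TSS region (chr17:57228018-57228473) was at 8.89 in WT1 and at 10.4 and 8.84 in KO. The Cfb TSS region (chr17:34862068-34862827), which also covers the 3′ end of the adjoining gene C2, was at 12.9 in WT1 and at 10.1 and 9.32 in KO. Neither was called in WT3, so neither entered the limma fit. At the C4b TSS (chr17:34743778-34744476) the fold enrichment was 6.04 and 5.71 in WT and 5.06 and 5.58 in KO, a log2 difference of −0.51 ± 0.28 (adjusted p = 0.297, limma). It was −0.95 without WT1 and −0.27 without KO1. The region 2825 bp upstream (chr17:34746417-34747027) was at 9.42 and 5.84 in WT and 8.97 and 7.97 in KO (log2 difference −0.18 ± 0.21, limma adjusted p = 0.643). The strongest, 17748 bp upstream (chr17:34761394-34761896), was at 22.3 and 11.2 in WT and 22.8 and 23.8 in KO (log2 difference 0.19 ± 0.22, limma adjusted p = 0.620). C4b has a near-identical neighbour, C4a, and ambiguously mapped reads had been filtered out, so signal inside either gene body is uncertain.

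The C4b upstream region had the largest mean log2 fold enrichment of the complement regions over the 4 libraries. Among the 15199 regions called in all 4 libraries, those most like it in the 4 centred values lay near Sh3bp5, Dcaf4 and Lrrc8b, at Euclidean distances of 0.0734, 0.133 and 0.139 on the log2 scale.

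Over the 11 regions called in all 4 libraries, 0 passed the threshold in fold enrichment by limma, against 0.0855% of the regions tested, and 4 of 11 (36.4%) had an unadjusted p under 0.05, against 22.0% of all regions. The median log2 difference was −0.31 for the 11 regions, with 3 above and 8 below 0. It was −0.09 over all 15199 regions and −0.18 over the 7137 promoter-TSS regions. Centred fold enrichment was lower in both KO libraries than in both WT libraries for 5 of 11 regions, against 32.9% of all regions, and higher in both for 1 of 11, against 22.3%. With 2 libraries a genotype, an exact permutation test of a single region cannot give a two-sided p below 0.33.

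Fold enrichment is a ratio, and its numerator and denominator did not move alike at these genes. The numerator is the pileup, the number of extended fragments that cover the summit. The denominator is the local background, the coverage the peak caller estimates from the sequence around the peak, which also contains the reads of the peak itself and of its neighbours. Both were solved from each peak's fold enrichment together with its p value. The library medians of the pileup over the shared regions were 97, 20, 99 and 65 in the order given above.

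At the C1qc TSS the pileup was 150 and 35 fragments in WT and 246 and 174 in KO. Relative to the library median it was 1.55 and 1.75 in WT and 2.48 and 2.68 in KO, so the genotypes did not overlap and the order was opposite to that of the fold enrichment. The log2 difference in pileup was 0.65 ± 0.22 (adjusted p = 0.081, limma). At C1qa the pileup was 115 and 25 in WT and 145 and 114 in KO (0.40 ± 0.22, limma adjusted p = 0.246). At C1qb it was 276 and 50 in WT and 278 and 187 in KO (0.09 ± 0.22, limma adjusted p = 0.797). The C5ar1 TSS had 136 and 23 fragments in WT and 236 and 126 in KO, and its log2 difference of 0.76 ± 0.24 had the lowest adjusted p of the 11 regions in pileup, 0.0640 by limma. Without WT3 this difference was 0.21, and without WT1 it was 0.90. Without WT3 the pileup differences at C1qc and C1qa also shrank, to 0.33 and 0.030. The C4b TSS, with 39 and 15 fragments in WT and 24 and 27 in KO, lay at the other end (−0.79 ± 0.35, limma adjusted p = 0.155). This difference was 0.35 when libraries were scaled by their lowest background, which moved the median of all regions to 1.03. None of the 11 passed the threshold in pileup by limma (2 of 11, or 18.2%, with an unadjusted p under 0.05, against 33.2% of all regions), against 2.49% of all regions called higher and 4.98% called lower in KO. The scaled pileup was higher in both KO libraries for 3 of 11 (25.2% of all regions) and lower in both for 3 of 11 (36.9%). The median log2 difference in pileup was 0.09 over the 11 regions and −0.10 over all. The first value became −0.039 without WT1 and −0.32 without WT3, against −0.15 and −0.11 over all regions, so its place relative to all regions turned with WT3. At the C4b TSS the difference in pileup ran from −1.24 (without WT1) to −0.40 with 1 library left out.

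**Figure D3:**
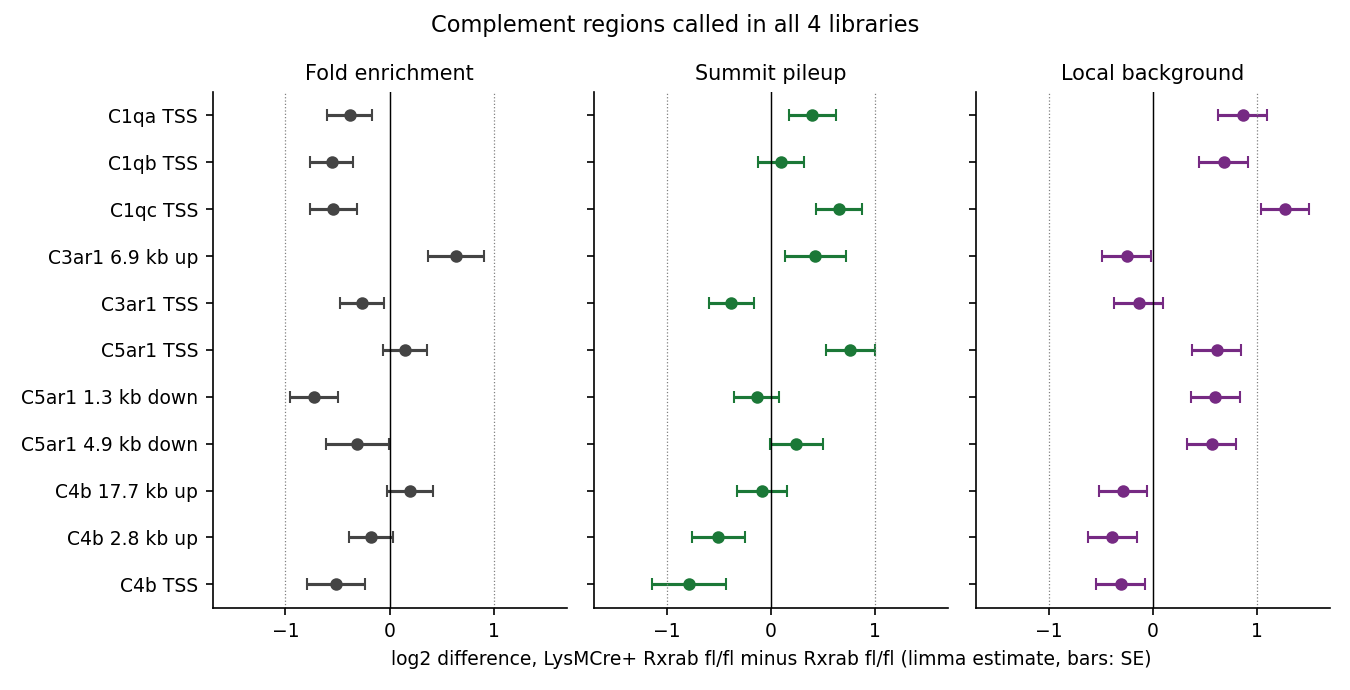
Log2 difference between KO and WT in fold enrichment, summit pileup and local background, for the 11 complement regions called in all 4 libraries. Points are limma estimates, bars are SE (n = 2 libraries a genotype) and dotted lines mark a log2 difference of 1 in either direction. The C1q promoters lie below 0 in fold enrichment and above 0 in local background, where C1qc reaches 1.27.

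The local background at the C1qc promoter was higher in the KO libraries. At the C1qc TSS it was 9.52 and 2.52 fragments in WT1 and WT3 and 19.3 and 17.4 in KO1 and KO2. Relative to the library median this was 1.64 and 1.40 in WT and 3.39 and 3.94 in KO. Both KO libraries lay above both WT libraries, as in 27.0% of all regions. The log2 difference was 1.27 ± 0.23 (95% interval 0.81 to 1.73), which passed the threshold (limma adjusted p = 1.06e-05) and lay above 99.3% of all regions tested. At C1qa the background relative to the median was 1.36 and 1.19 in WT and 2.01 and 2.66 in KO, a log2 difference of 0.87 ± 0.23 (limma adjusted p = 0.00348). At C1qb it was 1.95 and 1.58 in WT and 2.76 and 2.86 in KO, a log2 difference of 0.68 ± 0.23 (limma adjusted p = 0.0252). C1qa and C1qb had an adjusted p under 0.05 with a log2 difference under 1, so neither passed the threshold. The C1qa difference was 0.66 without KO2 and 1.07 without KO1. The C1qb difference ran from 0.53 to 0.83 with 1 library left out, and its limma adjusted p was 0.0754 with quantile normalization.

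The log2 difference at C1qc was 1.16 to 1.38 with 1 library left out, and the call held with quantile normalization, at 1.08 (limma adjusted p = 0.0113). The local background was examined after the values at C1q had been seen, the standard errors were pooled almost wholly over regions, and the C1q promoters are close enough to share surrounding sequence, so they are not independent measurements.

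**Figure D4:**
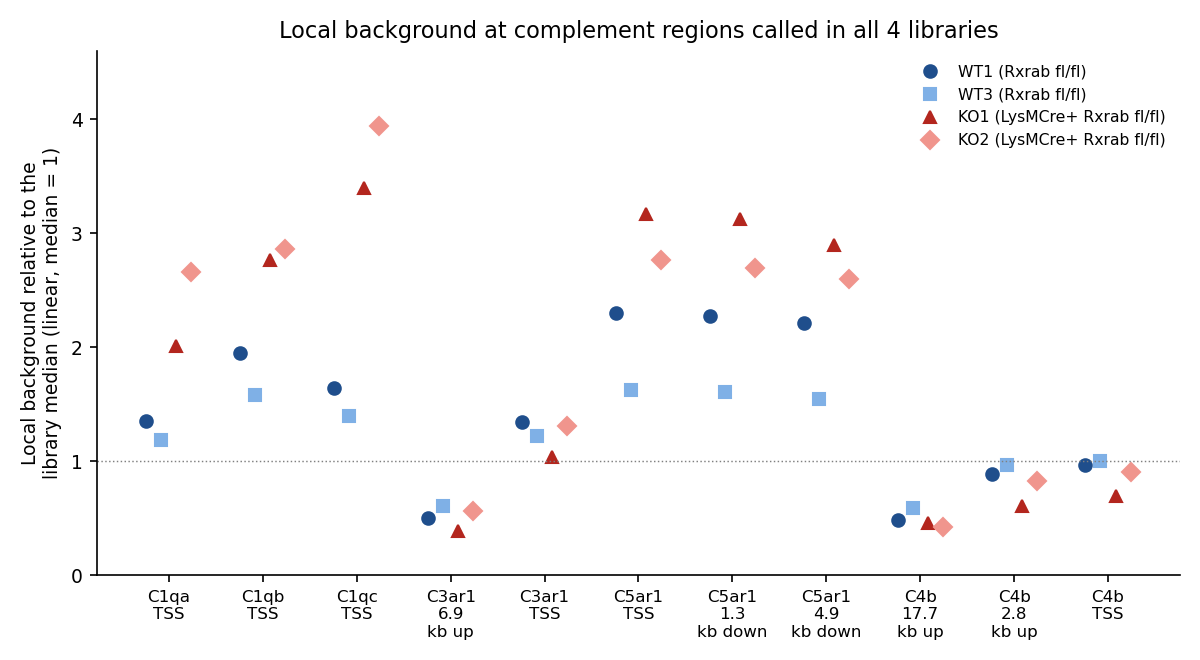
Local background relative to the median of each library (linear scale, median = 1) at the 11 complement regions called in all 4 libraries, with 1 point per library. At the C1qc TSS the KO libraries lie at 3.39 and 3.94 and the WT libraries at 1.64 and 1.40.

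At C5ar1 the differences in local background were smaller and less stable. Relative to the library median, the background at its TSS was 2.30 and 1.62 in WT and 3.17 and 2.76 in KO, a log2 difference of 0.62 ± 0.23 (limma adjusted p = 0.0477). The difference was 0.87 without WT1 and 0.36 without WT3, and its limma adjusted p was 0.133 with quantile normalization. The intronic regions, which share most of the same surroundings, gave 0.60 and 0.57 (limma adjusted p = 0.0542 and 0.0714). At C3ar1 and C4b the local background did not pass the test, with log2 differences of −0.13 and −0.25 at C3ar1 and −0.29 to −0.39 at C4b and limma adjusted p from 0.241 to 0.735. In all, 1 of 11 regions passed the threshold upwards, against 2.15% of all regions, and 0 of 11 downwards, against 2.37%. The scaled background was higher in both KO libraries for 6 of 11 regions, all at C1q or C5ar1 (27.0% of all regions), and lower in both for 3 of 11, all at C4b (32.6%). In bulk libraries, more open chromatin per cell and a larger share of cells with open chromatin cannot be told apart.

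Among 39 other genes of the complement system, 30 had a region and 15 had a region called in all 4 libraries. They held 100 regions, of which 27 were called in all 4. In fold enrichment 0 of the 27 passed the threshold by limma, and 6 (22.2%) had an unadjusted p under 0.05, against the 22.0% of all regions. The median log2 difference of the 27 was −0.07. In pileup 2 of 27 (7.41%) passed, both lower in KO, against 4.98% of all regions called lower. Both lay upstream of Cd93, which encodes a C-type lectin-like surface protein once described as a C1q receptor. The Cd93 region 48953 bp upstream (chr2:148492123-148492853) had pileups of 141 and 34 in WT and 60 and 32 in KO, a log2 difference of −1.52 ± 0.23 (limma adjusted p = 0.0183). The one 87151 bp upstream (chr2:148530423-148530949) had 96 and 24 in WT and 45 and 35 in KO, a log2 difference of −1.14 ± 0.23 (limma adjusted p = 0.0252). With 1 library left out, its genotype has no measured spread, so whether the calls held could not be judged. The log2 difference then ran from −1.82 to −1.38 at the first region and from −1.40 to −1.02 at the second. Neither passed by limma when libraries were scaled by their lowest background, at −0.39 (adjusted p = 0.665) for the first and an adjusted p of 0.998 for the second. That scaling moved the median of all 15196 regions to 1.03, and 7 of them passed upwards and 0 downwards. The loss of the calls under it is thus not particular to Cd93. At the TSS of Cd93 itself the log2 difference in pileup was −0.13 (limma adjusted p = 0.721).

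C5ar2, which encodes the other C5a receptor, has its TSS 15.4 kb from that of C5ar1 and is named here after its values were seen. The pileup at its promoter (chr7:16243943-16244440) was 35 and 14 in WT and 75 and 72 in KO, a log2 difference of 0.87 ± 0.34 (limma adjusted p = 0.114). Its local background was 3.66 and 1.28 in WT and 7.06 and 9.38 in KO, a log2 difference of 1.28 ± 0.24 (limma adjusted p = 1.12e-05). Of the 27 regions of these other genes it was the 1 (3.70%) that passed the threshold in local background, near the 2.15% of all regions called higher, and without KO2 it did not (0.89, limma adjusted p = 0.0557).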

How the data were processed

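The authors trimmed the paired-end reads with cutadapt, aligned them to mm10 with Bowtie2, kept properly paired reads of high mapping quality, and removed duplicates and reads on the mitochondrion, unplaced contigs and chromosomes X and Y. Genes on those chromosomes were not analysed here. MACS2 2.1.1 called peaks per library (fragment extension 200 bp, q value 0.05), and blacklisted peaks were discarded. The deposited lists give each peak's fold enrichment, a ratio of summit pileup to local background. They also give, as deposited, the −log10 of the p and q values of each peak and an integer score, which was not used. Read counts are not analysed here, so the authors' test on counts was not run.

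Per peak, the whole-number pileup and background that give its fold enrichment and p value were solved with a pseudocount of 1, with a solution found for 99.9969% to 100% of peaks by library. The strongest peak stood for a region in a library. Genes and TSSs were RefSeq curated transcripts of GRCm38.p6 (24963 genes). Log2 values of regions called in all 4 libraries had the library median subtracted. The genotypes were compared with limma 3.58.1 (R 4.3.3, default eBayes), with Benjamini-Hochberg adjustment over all regions, an adjusted p under 0.05 and a log2 difference past 1. The fits were tested on simulated data. Depth per library is not stated in the lists. The lowest local background of a library was 1.97 and 1.06 fragments in WT1 and WT3 and 1.33 and 1.08 in KO1 and KO2.

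The genes and lists were chosen with earlier results of these data known. All 8 genes were described, with values for each region called in all 4 libraries and for the strongest region of each gene, and other complement genes were named where a region passed the threshold in fold enrichment or pileup.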

Additional observations from a re-analysis of the deposited data

How the results depend on the processing

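No paired analysis was possible because the genotypes share only 1 replicate number. Of the complement regions, 0 passed in fold enrichment under every alternative that kept all 4 libraries. For other complement genes the count was 2 by pileup and 0 under the other alternatives that kept all 4 libraries. Without WT3, where WT rests on WT1 alone, the log2 difference in fold enrichment was 1.05 at the Cd55 TSS and −1.13 at Fcna. It was −1.16 at Cd93 (48956 bp upstream) and 1.14 at C8b (68352 bp upstream). Without WT3 the log2 differences in pileup were 1.34 at C1qb, 7550 bp downstream, and −1.12 at Cfb at its TSS. Apart from the Cd93 region, which all 4 libraries called, WT3 did not call these regions. WT1 alone was then assumed to vary like the others. Regions called in every KO library kept and in no WT library kept numbered 3 to 9 with 1 library left out, where fewer conditions had to be met. When every library was reduced to its 16097 best peaks, 12 regions remained. Of these, 11 were called in WT1 and 9 each in KO1 and KO2. In KO alone 0 were called, and in WT alone 1. The shares over all regions were not computed at this setting, so these counts have no background to be read against. Overlap with gene bodies alone gave 15 regions.

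Log2 differences in fold enrichment changed sign with the pileup at C1qa (0.40), C1qb (0.092), C1qc (0.65), C5ar1 4896 bp downstream (0.24) and C4b 17748 bp upstream (−0.088). Without centring, which moved the median of all regions from −0.09 to 0.28, they changed sign at the C3ar1 TSS (0.10), C5ar1 4896 bp downstream (0.059) and C4b 2825 bp upstream (0.19). Leaving out 1 library gave −0.14 to 1.08 at C3ar1 6865 bp upstream, −0.032 to 0.17 at the C5ar1 TSS and −0.16 to 0.39 at C4b 17748 bp upstream. In pileup it gave −0.41 to 0.19 at C1qb, −0.28 to 0.72 at C3ar1 6865 bp upstream, −0.039 to 0.33 at C5ar1 4896 bp downstream and −0.32 to 0.079 at C4b 17748 bp upstream. The cause of these changes was not tested.

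Scaling by the lowest background moved the median of all regions to 1.03 in pileup and 0.85 in local background. Pileup differences then became 0.76 at the C3ar1 TSS, 1.00 at C5ar1 1307 bp downstream, and 1.05, 0.63 and 0.35 at C4b 17748 and 2825 bp upstream and at its TSS. Local background differences became 0.66 and 0.77 at C3ar1 (6865 bp upstream and TSS) and 0.62, 0.52 and 0.60 at C4b in the order above. With this scaling 6 of the 11 complement regions passed, all at C1q or C5ar1. So did 4131 of all 15196 regions, each of them higher in KO. Quantile normalization gave local background differences of 0.066 at C3ar1 6865 bp upstream and 0.21 at C4b 17748 bp upstream. With 1 library left out, the differences in local background were −0.52 to 0.023 at C3ar1 6865 bp upstream and −0.30 to 0.030 at the C3ar1 TSS. Over all regions, the calls in fold enrichment (6 higher and 7 lower in KO) became 9 and 2 with quantile normalization, 61 and 76 with a mean-variance trend, 23 and 18 with equal peaks, 11 and 14 when peaks had to cover 50% of a region, 246 and 543 without WT1, 757 and 425 without WT3, and 0 without centring, with the mean over peaks or with regions missing from some libraries. The calls in pileup (379 and 757) became 579 and 529 with quantile normalization, 7 and 0 when scaled by the lowest background, 493 and 1266 without WT1, 1721 and 2627 without WT3, 202 and 449 without KO1 and 0 without KO2. The calls in local background (327 and 360) became 254 and 119 with quantile normalization, 4131 and 0 when scaled by the lowest background, and 501 and 795 without WT1. These alternatives for the local background were chosen after seeing the data. Each value rests on 2 libraries a genotype, and WT3 had the fewest peaks.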
